A study of Homo sapiens with 42 samples.

Results

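Mutually exclusive exons are alternative exons of which a transcript takes 1 and leaves out the other. The splicing tables of MM.1S and INA-6 cells list such exons as events of their own, and the members described here are all events of that class whose exon tag did not mark nonsense-mediated decay. Of 168483 events listed over the 8 tables, 7492 were members, which came to 3959 distinct events on 3782 exons of 1952 genes. In the largest table the tag removed 1125 of 4605 events of the class. MM.1S and INA-6 are established human multiple myeloma cell lines, grown from a cancer of antibody-secreting plasma cells.

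RNA of 42 libraries, 3 in each of 14 groups, was sequenced. MM.1S cells with interleukin-6 (IL-6) for 24 hours were set against MM.1S cells without IL-6, and the same was done in INA-6 cells. IL-6 is a growth factor of plasma cells. In the other 6 comparisons the cells expressed Cas9, had been given a guide RNA by lentivirus and puromycin selection, and had IL-6 in every group, controls included. INA-6 cells with sgPOU2AF1 and with sgELL2 shared 1 sgEGFP group, and MM.1S cells with sgSRSF1 and with sgHNRNPL shared another. MM.1S sgPOU2AF1 and MM.1S sgELL2 each had an sgEGFP group of their own. POU2AF1 is a B cell coactivator of transcription, ELL2 an elongation factor of RNA polymerase II, and SRSF1 and HNRNPL are RNA-binding splicing regulators. EGFP is a jellyfish gene that human cells lack. The time with IL-6 is 24 hours on the labels of the MM.1S guide groups and is not stated for the INA-6 ones. The tables hold splicing values only, so the level of each targeted gene and of plasma cell markers was not checked here.

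Where a pair of exons is mutually exclusive, the choice usually swaps a stretch of protein for another of like length. Many classic pairs arose by duplication of 1 exon and encode alternative versions of the same domain, as in FYN, a SRC-family kinase with a brain-type and a T cell-type linker, and in MEF2D, a transcription factor with a broad and a muscle-type form. SRSF1 is known to bind purine-rich exon sequence and to promote inclusion of many exons, and HNRNPL to bind CA-rich sequence. PSI, percent spliced in, is the share of transcripts over an event region that include its exon, from 0 to 100.

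The exons of 4 coding pairs on which the results below turn are printed here on their transcribed strand, 5′ to 3′. They were read from GENCODE release 29 transcripts (GRCh38), and capitals mark runs of at least 5 bases that are identical between the partners within a gap-free stretch of a global alignment. The P4HA2 exons lie at chr5:132198321-132198380 and chr5:132198206-132198271, the PPP1R12A exons at chr12:79806166-79806333 and chr12:79805592-79805768. The MEF2D exons lie at chr1:156480834-156480971 and chr1:156480643-156480777, and the FYN exons at chr6:111700104-111700268 and chr6:111699515-111699670. All 8 are on the minus strand and are annotated as coding.
P4HA2 upstream exon: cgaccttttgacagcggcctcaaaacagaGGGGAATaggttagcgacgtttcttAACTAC
P4HA2 downstream exon: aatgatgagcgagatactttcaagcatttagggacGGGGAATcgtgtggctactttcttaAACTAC
PPP1R12A upstream exon: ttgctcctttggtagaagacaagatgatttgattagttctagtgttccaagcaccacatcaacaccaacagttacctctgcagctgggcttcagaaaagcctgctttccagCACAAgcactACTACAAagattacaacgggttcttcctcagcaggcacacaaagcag
PPP1R12A downstream exon: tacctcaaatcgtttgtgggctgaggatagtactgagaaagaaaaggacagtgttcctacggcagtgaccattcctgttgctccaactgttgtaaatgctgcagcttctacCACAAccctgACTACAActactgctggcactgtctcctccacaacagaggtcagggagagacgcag
MEF2D upstream exon: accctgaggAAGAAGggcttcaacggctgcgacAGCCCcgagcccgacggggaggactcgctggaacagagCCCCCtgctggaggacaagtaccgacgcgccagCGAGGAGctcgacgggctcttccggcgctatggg
MEF2D downstream exon: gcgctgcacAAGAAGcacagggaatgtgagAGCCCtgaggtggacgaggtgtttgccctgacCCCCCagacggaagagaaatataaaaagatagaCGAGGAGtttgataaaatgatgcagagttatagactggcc
FYN upstream exon: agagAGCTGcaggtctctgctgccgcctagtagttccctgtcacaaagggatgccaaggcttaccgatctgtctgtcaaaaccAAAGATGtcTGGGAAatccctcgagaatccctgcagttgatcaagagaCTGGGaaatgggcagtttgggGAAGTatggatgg
FYN downstream exon: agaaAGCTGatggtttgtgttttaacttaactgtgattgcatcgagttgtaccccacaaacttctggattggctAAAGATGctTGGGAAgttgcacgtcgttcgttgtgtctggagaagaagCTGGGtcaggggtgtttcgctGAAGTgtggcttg

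The partners were close neighbours, 49 bases apart in P4HA2, 56 in MEF2D, 397 in PPP1R12A and 433 in FYN. Their lengths differed by a multiple of 3 in each of the 4 pairs, so that either exon leaves the reading frame after it the same. Both PPP1R12A exons were read from the same annotated transcript, so by annotation that pair is not strictly exclusive. The aligned bases identical between partners came to 58.3% of the shorter exon in P4HA2, 53.3% in MEF2D, 54.2% in PPP1R12A and 59% in FYN. The same alignment gave a median of 61.3% over 119 coding pairs of the sgSRSF1 table, with a range of 42.3 to 100%. Gaps let a short exon match more of a long one, and 11 of the 119 pairs had equal lengths. The median is therefore no like baseline, and whether the 4 pairs are more alike than others was not tested.

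The event class was checked in the complete tables, those of MM.1S sgSRSF1 and MM.1S sgHNRNPL. The sgSRSF1 table held 3480 members in 2150 combinations of a region and a gene. Of these, 676 held 2 exons that did not overlap, 125 held 3 or more, and 1349 held 1 exon without the decay tag. In 278 regions at least 2 non-overlapping exons both had a mean PSI of 5 or more in sgEGFP cells. The PSI of the 2 best-used exons then summed to a median of 73.9, to at least 90 in 78 regions, to under 50 in 70, and in 0 regions to over 100 by more than 1 point. A sum over 100 may be impossible by the way PSI is computed, so its absence is no test of the class. The target exon of 59.3% of members was also listed as a single skipped exon or as part of a run of skipped exons. The region of 70% of members was also listed with a run of skipped exons. In most of the 278 regions the sums left out part of the transcripts. Such transcripts could include neither of the 2 exons as listed, or both. Whether a transcript with both exons counts toward either PSI is not known, because the splicing caller is not given. Some of these transcripts could hold another version of an exon or another exon of the region, which the sums leave out.

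Member exons were mostly of low or intermediate use, with a median PSI of 17.2 in sgEGFP cells, against 33.3 for single skipped exons. Single skipped exons were taken here and below whatever their decay tag, so the sets were not filtered alike. Exclusive exons of a shared region also cannot both have a high PSI, so the classes are not on a like footing. In sgEGFP cells of the sgSRSF1 table, 49.3% of 3350 members with a value in every library had a mean PSI between 10 and 90, against 35.5% of 13213 single skipped exons. A mean above 90 was seen in 6.6% of members and in 22.6% of single skipped exons. Among members with a control mean between 20 and 80, the median SD between libraries was 3.67 points in sgSRSF1 cells and 3.55 in sgEGFP cells. Of 2823 distinct exons fitted, 1265 were coding, 659 lay in 5′ UTRs and 388 in non-coding transcripts. A length that was a multiple of 3 was found in 42.8%, against 44.1% of 14767 single skipped exons of the complete tables. Among the 119 region pairs with both exons coding, 74 (62.2%) had lengths that differed by a multiple of 3.

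Differences were tested with limma on logit PSI, adjusted by the Benjamini-Hochberg method over every event of a table. An event was called at an adjusted p under 0.05 with a difference of mean PSI of at least 10 points, given as the treated or targeted group minus its control. In 6 of the 8 tables only events with an unadjusted p under 0.05 carry a p-value, so adjusted p-values there cover events already selected, and the groups of every fitted member were separate. Shares called in those 6 tables cannot be read against the 2 complete tables. PSI are shares within a gene, so a change in how much RNA a gene makes does not by itself appear in them. The labels do not tell whether replicates were separate cultures, so the p-values describe only how these libraries varied, perhaps for technical reasons. The RNA is from bulk cells, so a shift in cell makeup and a shift within cells cannot be told apart.

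**Figure D1:**
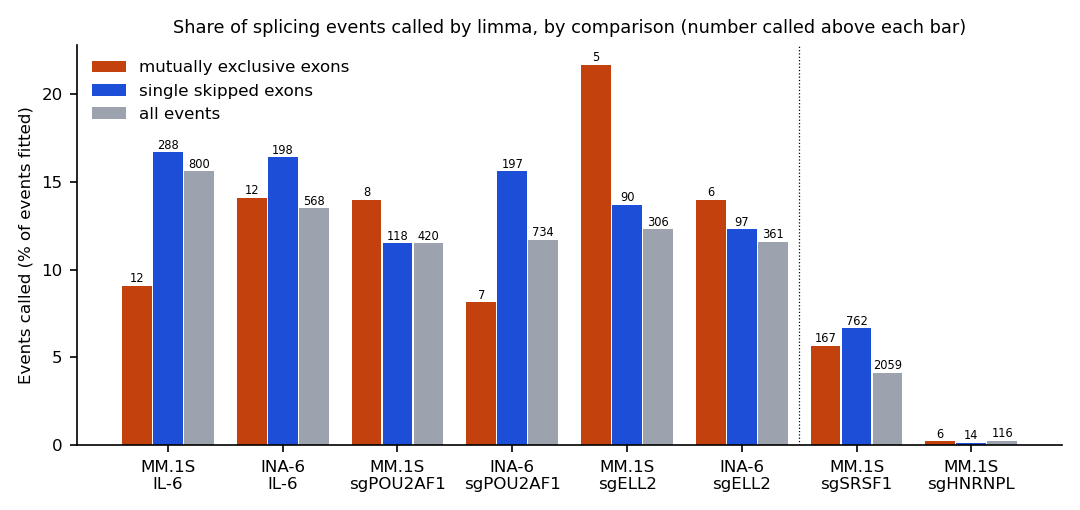
Share of fitted events called in each comparison (percent, vertical axis) for mutually exclusive exons, single skipped exons and all events, with the number called above each bar. Only the mutually exclusive exons were limited to events without the decay tag. The 6 comparisons left of the dotted line rest on tables of selected events; on the right, 5.67% of mutually exclusive exon events were called with sgSRSF1 and 0.211% with sgHNRNPL.

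With IL-6, MM.1S cells changed 12 of 132 fitted members (9.09%), beside 15.6% of all 5130 fitted events, and 10 of the 12 fell. The shares called over all events there were 5.38% for rises and 10.2% for falls. In INA-6 cells 12 of 85 fitted members were called (14.1%), beside 13.5% of all 4208 fitted events, and 8 of the 12 fell, beside 6.96% of all events called as rises and 6.54% as falls. PPP1R12A, MTMR1, IKZF3 and BMF were among the genes with lower exon use in MM.1S cells with IL-6, and PPP1R12A and MTMR1 fell in INA-6 cells too. The median difference of fitted members was -1.78 points in MM.1S cells, beside -1.48 over all events, and -0.97 points in INA-6 cells, beside 0.95.

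PPP1R12A encodes the targeting subunit of myosin phosphatase. Its upstream exon, printed above, had PSI of 50.9, 46.3 and 44.4 in MM.1S cells with IL-6, against 59.2, 61.7 and 57.7 without. In INA-6 cells the same exon had 45.2, 45.5 and 45.9 with IL-6, against 64.7, 58.4 and 58.4 without. The exon fell by 12.3 points in MM.1S (limma adjusted p = 0.00524) and by 15 points in INA-6 (limma adjusted p = 0.00433). Groups were separate in 100% of fitted members of both comparisons, whose events were selected by p, so separate groups add nothing here.
The downstream partner moved the other way. It had 38.5, 39.8 and 35.5 in INA-6 cells with IL-6, against 28.4, 24.3 and 29.4 without, a difference of 10.6 points (limma adjusted p = 0.00749). In MM.1S cells it had 29, 25.6 and 29.1 with IL-6, against 21.7, 21.1 and 20.5 without. That difference of 6.8 points passed the adjusted p (0.00607, limma) but not the size threshold. The 2 exons together summed to 83.5 ± 2 with IL-6 and 87.9 ± 5.2 without in INA-6 cells, and to 75.1 ± 4.2 and 80.6 ± 2.3 in MM.1S cells with and without IL-6 (SD, n = 3). The interaction test found no difference between the lines past the threshold for either exon, with limma adjusted p of 0.507 for the upstream and 0.432 for the downstream exon.

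MTMR1, a myotubularin-family lipid phosphatase, has a coding member exon of 24 bases. It had PSI of 75.1, 84.2 and 77.4 in MM.1S cells with IL-6, against 92.8, 93.5 and 89.8 without. INA-6 cells had 63.3, 64.8 and 68 with IL-6, against 81.9, 82.5 and 85.5 without. The exon fell in both lines, by 13.2 points in MM.1S (limma adjusted p = 0.00482) and by 18.0 in INA-6 (limma adjusted p = 0.00204). The difference between lines did not pass (limma interaction adjusted p = 0.619).

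Other called exons of the MM.1S comparison were those of single genes. IKZF3 encodes Aiolos, a transcription factor of B cells and plasma cells, and its coding exon of 117 bases had PSI of 77.5, 81.1 and 78.7 with IL-6, against 92.5, 92.3 and 91 without. It fell by 12.8 points (limma adjusted p = 0.000848). BMF, a BH3-only promoter of cell death, had a 5′ UTR exon at 44.3 ± 2.5 with IL-6 and 56.6 ± 1.5 without, a difference of -12.3 points (limma adjusted p = 0.00325).
PGAP2, which remodels GPI anchors, had a coding exon at 44.2 ± 1.1 with IL-6 and 55.3 ± 0.74 without (limma adjusted p = 0.00202). ODF2L, a centriolar protein gene, had 20.3 ± 5.4 with IL-6 and 33.1 ± 3.7 without (limma adjusted p = 0.0134). STK25, a serine/threonine kinase gene, had 80.9 ± 4 with IL-6 and 91.1 ± 2.5 without (SD, n = 3 for these 4 genes; limma adjusted p = 0.0102). The largest rise among members with all values was a 5′ UTR exon of NTRK2, a neurotrophin receptor gene, at 50.9, 45.3 and 40.4 with IL-6, against 33.5, 24.8 and 31 without (limma adjusted p = 0.00911).
P4HA2, an alpha subunit of collagen prolyl 4-hydroxylase, was the single textbook gene of mutually exclusive exons with members in this table, and it lay just under the size threshold. Its upstream exon, printed above, had 54.4, 48.5 and 53.7 with IL-6, against 62.6, 60.4 and 61.2 without, a difference of -9.2 points (limma adjusted p = 0.00807). The downstream exon had 45.6, 45.6 and 43.1 with IL-6, against 37.4, 37.8 and 31.1 without, a difference of 9.3 points (limma adjusted p = 0.0115). Together they summed to 97 ± 2.9 with IL-6 and 96.8 ± 4.1 without (SD, n = 3). P4HA2 was named after its values were seen. With adjustment over 58062 events, as in the complete sgSRSF1 table, 3 members were called in MM.1S cells and 2 in INA-6 cells. Left-out libraries are named by the place of their value in each list, which the tables do not tie to a replicate. Without any 1 value, 7 of the 8 named calls of MM.1S cells held, and STK25 lay under the size threshold without the first or second listed IL-6 value or the third listed value without IL-6, at differences of -9.4, -8.7 and -8.8 points.

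In INA-6 cells a coding exon of 141 bases in PTPRC rose with IL-6. PTPRC encodes CD45, a leukocyte phosphatase whose extracellular part is built from alternative exons. PSI was 40.8, 40.8 and 40.4 with IL-6, against 29.5, 29.6 and 29.7 without, a difference of 11.1 points (limma adjusted p = 0.0019). With sgELL2, in other INA-6 cells, the same exon had 39.2, 37.6 and 39.4, against 47.7, 46.9 and 45.4 with sgEGFP. That difference of -8.0 points (limma adjusted p = 0.00816) was under the size threshold.
PURPL, a long non-coding RNA gene, exchanged a pair. The exon of 101 bases had 33.2 ± 4.5 with IL-6 and 17.8 ± 3.3 without, and the exon of 104 bases had 57.1 ± 5.5 with IL-6 and 75.7 ± 3.5 without (SD, n = 3; limma adjusted p = 0.00698 and 0.00602). PHF8, a histone demethylase gene, rose by 11.9 points in an exon of 303 bases (limma adjusted p = 0.0137). The largest fall, in ZNF133, a zinc finger gene, also had the widest spread, with 42.9, 25.5 and 43.3 with IL-6, against 53.1, 63.6 and 71.7 without (limma adjusted p = 0.0169). SNHG16, a host gene of small nucleolar RNAs, fell by 10.0 points (limma adjusted p = 0.00535). GUSBP1, a pseudogene whose reads may be shared with near-identical copies, fell by 18.7 points (limma adjusted p = 0.0119) and is uncertain for that reason. Calls held without any 1 value for 7 of the 10 named events of INA-6 cells. The PPP1R12A downstream exon dropped to 9.0 to 9.6 points without the second listed value of either group, PHF8 to just under 10 points without the same values, and SNHG16 had differences of -8.6 and -9.8 points without the third listed IL-6 value or the first listed value without IL-6.

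**Figure D2:**
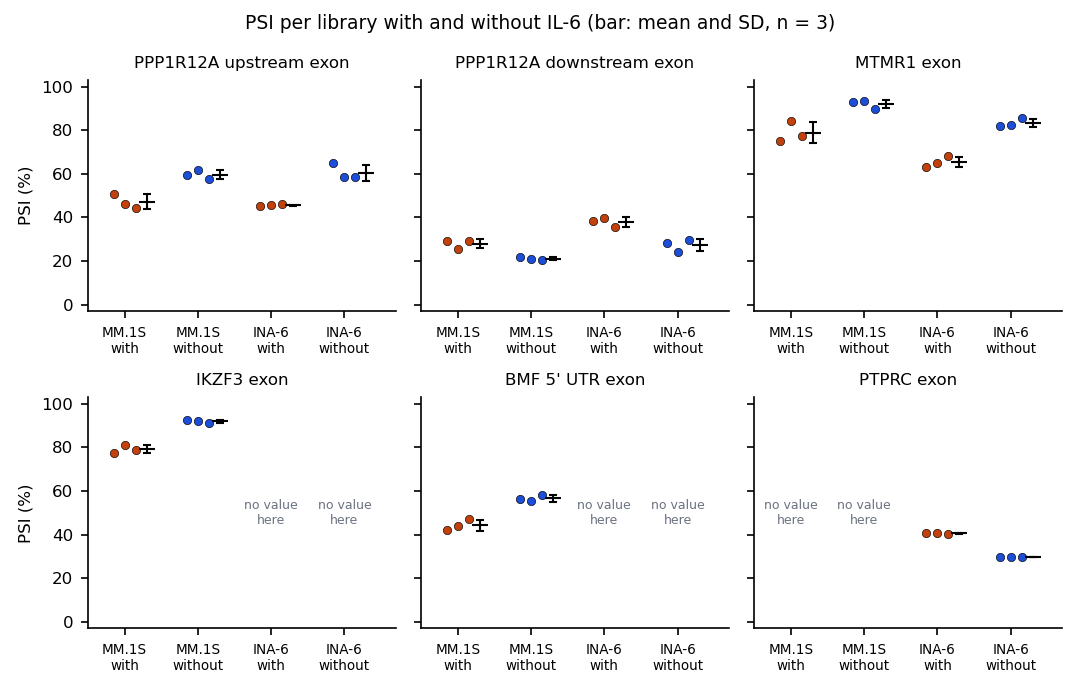
PSI of each library (percent, vertical axis; points) in cells with and without IL-6 for 6 exons, with the mean and SD of 3 libraries beside them. The PPP1R12A upstream exon and the MTMR1 exon lie lower with IL-6 in both lines, and the PPP1R12A downstream exon lies higher.

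Targeting of POU2AF1 changed 8 of 57 fitted members in MM.1S cells (14%), beside 11.5% of all 3647 fitted events, and 7 of the 8 rose. Over all events 6.39% were called as rises and 5.13% as falls. In INA-6 cells 7 of 86 fitted members were called with sgPOU2AF1 (8.14%), beside 11.7% of all 6248 fitted events, of which 2 rose, beside 6.16% of all events called as rises and 5.59% as falls. With adjustment over 58062 events 0 members were called in MM.1S and 3 in INA-6 cells (limma; 53 and 78 fitted members had an unadjusted p under 0.05). No called member was shared between the lines, but only 3 members were listed in both, and shared calls over all events were not counted. Of these 3 members 0 passed the limma interaction test (0 at an unadjusted p under 0.05), beside 217 of all 547 events listed in both (39.7%). ODF2L had the largest change among MM.1S members with all values. The same coding exon that was lower with IL-6 had PSI of 49.4, 46 and 37.6 with sgPOU2AF1, against 11.8, 19 and 16.5 with sgEGFP, a rise of 28.6 points (limma adjusted p = 0.00332).
IL1RAP, the accessory subunit of the IL-1 receptor, had a 5′ UTR exon at 66.3 ± 7 with sgPOU2AF1 and 50.5 ± 2.5 with sgEGFP (limma adjusted p = 0.0127). MLLT10, a cofactor of histone methylation, had a coding exon of 33 bases at 69.6 ± 2.8 with sgPOU2AF1 and 57.8 ± 3.1 with sgEGFP (limma adjusted p = 0.00798). FCHSD1 rose to 75.4 ± 2.8 with sgPOU2AF1, against 63 ± 5.3 with sgEGFP (limma adjusted p = 0.0122). XRRA1 was the member that fell, to 59.6 ± 3.9 with sgPOU2AF1, against 71.2 ± 4.5 with sgEGFP (SD, n = 3 for these 4 genes; limma adjusted p = 0.0157). A locus listed as ENSG00000291176 rose by 17.3 points (limma adjusted p = 0.02), a call lost without the first or second listed sgEGFP value at 15.9 and 14.8 points. XRRA1 was under the size threshold without the second listed sgEGFP or the third listed sgPOU2AF1 value, at -9.0 and -9.3 points.

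IL15, which encodes a cytokine of the common gamma chain family, exchanged a pair of 5′ UTR exons in INA-6 cells. The exon of 122 bases had PSI of 48.1, 56.9 and 60.8 with sgPOU2AF1, 50, 47.7 and 45.2 with sgELL2, and 37.2, 39.6 and 34.9 with the shared sgEGFP controls. The exon of 214 bases had 33.3, 31 and 31.4 with sgPOU2AF1, 32.1, 29.5 and 35.7 with sgELL2, and 48.8, 45.8 and 46.5 with sgEGFP. The first exon was higher and the second lower in every library of both targeted groups than in any control library. Such separation held for 100% of fitted members of both comparisons, whose events were selected by p, so it adds nothing here. The rises were 18.1 points with sgPOU2AF1 and 10.4 with sgELL2 (limma adjusted p = 0.00576 and 0.01), and the falls 15.1 and 14.6 points (limma adjusted p = 0.00175 and 0.00656). Because the controls are the same libraries, the likeness of the 2 comparisons is no independent support. The pair summed to 87.2 ± 5.4 with sgPOU2AF1, 80.1 ± 2.5 with sgELL2 and 84.3 ± 2.5 with sgEGFP (SD, n = 3).
The other INA-6 calls with sgPOU2AF1 lay in non-coding RNA genes and in PLD3 and C2. LINC00511 had 3.5 ± 1 with sgPOU2AF1 and 16.8 ± 2.4 with sgEGFP (limma adjusted p = 0.00181). TPT1-AS1 gave a rise of 14.0 points in 1 exon and a fall of 10.7 in another. C2, a complement component gene, had a coding exon at 39.5 ± 2.1 with sgPOU2AF1 and 50 ± 4.1 with sgEGFP (SD, n = 3; limma adjusted p = 0.00966). Left-out libraries ended the calls of C2, PLD3 and both TPT1-AS1 exons, whose differences then lay at -9.8 to -8.9 points, -9.9 to -9.7 points, 12 to 14.4 points and -9.6 to -9.3 points, while LINC00511 and the IL15 pair held.

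Targeting of ELL2 changed 5 of 23 fitted members in MM.1S cells (21.7%), beside 12.3% of all 2485 fitted events, and 4 of the 5 fell. Over all events 5.84% were called as rises and 6.48% as falls. In INA-6 cells 6 of 43 fitted members were called with sgELL2 (14%), beside 11.6% of all 3124 fitted events, and 4 rose, beside 6.34% of all events called as rises and 5.22% as falls. With adjustment over 58062 events 0 members were called in either line (limma; 20 fitted members in MM.1S and 38 in INA-6 cells had an unadjusted p under 0.05). A single event was 4.35% of the 23 members fitted in MM.1S cells. No member was listed in both lines. PXN, which encodes the focal adhesion protein paxillin, had a coding exon at 4.88, 9.09 and 13.9 with sgELL2, against 25.7, 24.1 and 25.6 with sgEGFP, a fall of 15.9 points (limma adjusted p = 0.0153). BCAS3 had the rise, with 32.8, 27.1 and 30.9 in sgELL2 cells, against 14.9, 15 and 17.5 in sgEGFP cells (limma adjusted p = 0.0044).
STK25 had the same exon called as with IL-6, at 82.5, 77.8 and 79.9 with sgELL2, against 95.6, 88 and 90.7 with sgEGFP (limma adjusted p = 0.0205). ARNTL, a core gene of the circadian clock, and ZNF821 fell by 11 and 11.1 points. Calls of STK25, ARNTL and ZNF821 were lost without some 1 library, at differences of -11.3 to -9.3, -10.5 to -8.9 and -8.7 points, and those of PXN and BCAS3 held. In INA-6 cells PKIB, an inhibitor of protein kinase A, had an exon at 34, 29.9 and 28.6 with sgELL2, against 6.82, 16.1 and 15.8 with sgEGFP (limma adjusted p = 0.0149). An exon of 404 bases in RBM41, an RNA-binding protein gene, rose to 72.4 ± 3 with sgELL2, against 60.2 ± 2.3 with sgEGFP (SD, n = 3; limma adjusted p = 0.00949). PPP1R3B-DT, a non-coding transcript, gave 17.9 and -10.0 points for 2 overlapping versions of 1 exon. The call of the second version was lost without 4 of the 6 libraries, at -9.5 to -9.1 points, and that of the IL15 exon of 122 bases, at 9.3 points, without the first listed sgELL2 or the third listed sgEGFP value.

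Targeting of SRSF1 changed the most members of the 8 comparisons, in a complete table. Of 2947 fitted members 167 in 141 genes were called (5.67%), beside 4.11% of all 50150 fitted events and 6.65% of 11458 single skipped exons. Of the 167, 108 were lower and 59 higher with sgSRSF1, that is 3.66% and 2% of fitted members, beside 2.93% and 1.18% of all events. By this rule the share of members called lay between that of all events and that of single skipped exons. Members leave out events with the decay tag, and the other sets do not. The groups did not overlap in any of the 167, and in 37.9% of all fitted members, beside 31.2% of all fitted events. The difference was 20 points or more in 68 events, 49 of them lower, and the median was -19.1 points among falls and 16.7 among rises. By annotation 89 of the called events lay in coding exons, 29 in partly coding exons, 28 in 5′ UTRs and 17 in non-coding transcripts. Counted as distinct exons, 57.1% of the lower and 50% of the higher called exons were coding, beside 44.8% of all fitted. The 5′ UTRs held 12 of 105 lower, 13 of 58 higher and 659 of 2823 fitted exons. The listed unadjusted p under 0.05 with the same size called 290 members (8.94%), beside 5.74% of all events with a listed p and 8.76% of single skipped exons, so the order of members and single skipped exons depends on the rule. Without any 1 library, 52 to 70 members were called instead of 167. Of the 23 named calls 8 held then, in CD46, IFT122, MEF2D, MICAL3, MIS12, NAP1L4, PIGN and UBXN2B, and the other 15 kept their direction with the adjusted p past 0.05 for at least 1 left-out library, at most 0.0709 in MSH5 and 0.0572 in RELCH (limma). BPTF, PHF8, TIA1, RBM41 and the SLAMF7 exon of 104 bases lost the call whichever of the 6 values was left out, with an adjusted p of at most 0.113 in BPTF (limma), and PXN lost it for 5 of the 6.

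**Figure D3:**
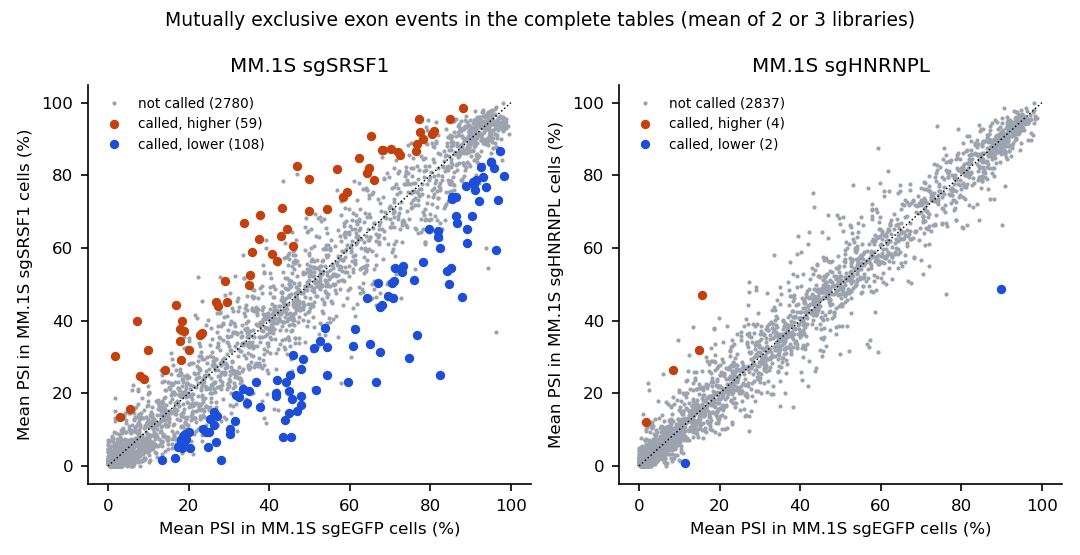
Mean PSI of each fitted mutually exclusive exon event in the targeted cells (percent, vertical axis) against MM.1S sgEGFP cells (percent, horizontal axis); the dotted line marks equal values. With sgSRSF1, 108 called events lie below the line and 59 above it; with sgHNRNPL, 2 lie below and 4 above.

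The largest falls with all values present were in genes of several functions. MSH5, a meiotic MutS homologue, had PSI of 26.7, 11.6 and 37 with sgSRSF1, against 88.5, 77.8 and 80.8 with sgEGFP, a fall of 57.3 points (limma adjusted p = 0.0237). UBXN2B, an adaptor of the p97 ATPase, had 26.5, 28.9 and 33.5 with sgSRSF1, against 74.8, 77.6 and 71.8 with sgEGFP (limma adjusted p = 0.00545). MICAL3, a monooxygenase that acts on actin, had 24.7, 20.4 and 24.1 with sgSRSF1, against 62.5, 66.7 and 70.5 with sgEGFP (limma adjusted p = 0.00564). Each of the 3 exons was a minor form in sgSRSF1 cells and the main form in sgEGFP cells, with no overlap of libraries.
IFT122, a subunit of the intraflagellar transport machinery, fell by 40.7 points to 36 ± 1 with sgSRSF1, against 76.7 ± 2 with sgEGFP (limma adjusted p = 0.00444). MIS12, a kinetochore gene, had a 5′ UTR exon at 7.89 ± 2 with sgSRSF1 and 45.4 ± 5.6 with sgEGFP (SD, n = 3; limma adjusted p = 0.00687). GARS1-DT, a divergent non-coding transcript, had 33.3, 58.3 and 48 with sgSRSF1, against 81.5, 92.1 and 90.2 with sgEGFP, the widest spread of these 6 events among sgSRSF1 libraries together with MSH5.

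Among the rises, RELCH, which encodes a RAB11-binding protein, had 83.3, 86.9 and 77.5 with sgSRSF1, against 52.1, 41.1 and 47.6 with sgEGFP, a rise of 35.6 points (limma adjusted p = 0.0152). PIGN, an enzyme of GPI anchor synthesis, had 69.9, 63.5 and 67.2 with sgSRSF1, against 30.1, 38.9 and 32 with sgEGFP (limma adjusted p = 0.0119). IP6K2, an inositol hexakisphosphate kinase, had 44, 34 and 41.2 with sgSRSF1, against 3.92, 10.2 and 7.41 with sgEGFP (limma adjusted p = 0.0165). The IP6K2 exon was of low use in sgEGFP cells, at a mean of 7.18.
DMTF1, a Myb-like transcription factor gene, rose to 69.1 ± 5.1 with sgSRSF1, against 37.6 ± 4.4 with sgEGFP. NAP1L4, a histone chaperone gene, rose to 79.1 ± 2.6 with sgSRSF1, against 49.9 ± 1.5 with sgEGFP. BPTF, a subunit of the NURF chromatin remodeller, rose to 71 ± 8.5 with sgSRSF1, against 43.2 ± 1.5 with sgEGFP (SD, n = 3 for these 3 genes; limma adjusted p = 0.0172, 0.00862 and 0.0419).

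MEF2D was the called gene of the textbook list. Its upstream exon, printed above, had PSI of 81.4, 79.1 and 79.1 with sgSRSF1, against 98, 98.7 and 97.9 with sgEGFP, a fall of 18.4 points (limma adjusted p = 0.00424). The downstream exon had 6.03, 8.23 and 8.51 with sgSRSF1, against 0.804, 0.376 and 1.52 with sgEGFP. That rise of 6.7 points had an adjusted p of 0.00815 (limma) and stayed under the size threshold. The pair summed to 87.4 ± 0.15 with sgSRSF1 and 99.1 ± 0.32 with sgEGFP (SD, n = 3), so the downstream exon took up part of what the upstream exon lost. Of the 10 fitted members of the textbook list with sgSRSF1, in FYN, MEF2A, MEF2C, MEF2D and TPM3, 1 was called. The median size of their differences was 1.55 points, beside 2.29 over all fitted events.

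Among B cell, plasma cell and IL-6 signalling genes, 5 of 16 fitted members were called with sgSRSF1, 3 higher and 2 lower, with a median difference of -0.71 points, beside 4.11% called and a median of -0.24 points over all fitted events. The list was chosen with earlier results known, so its count is a description. SLAMF7, a plasma cell surface receptor, had a coding pair that moved in opposite directions. The exon of 120 bases had 71.8, 70 and 69.1 with sgSRSF1, against 49.7, 50.6 and 49 with sgEGFP (limma adjusted p = 0.0136). The exon of 104 bases had 19.9, 20.7 and 23.4 with sgSRSF1, against 34.6, 32 and 33.5 with sgEGFP (limma adjusted p = 0.0377). The pair summed to 91.6 ± 0.9 with sgSRSF1 and 83.2 ± 1 with sgEGFP (SD, n = 3), so the change was not an even exchange. The 2 lengths differ by a number that is not a multiple of 3.
CD46, a complement regulator, had a coding exon of 45 bases at 87.1, 87 and 86.6 with sgSRSF1, against 68.6, 68.2 and 67.9 with sgEGFP (limma adjusted p = 0.0072). ELL2, itself a targeted gene elsewhere in the study, had a coding exon of 122 bases at 91.8 ± 0.68 with sgSRSF1 and 77.4 ± 3.2 with sgEGFP (SD, n = 3; limma adjusted p = 0.0134). IL6R, the IL-6 receptor gene, had a coding exon of 142 bases at 72.4, 62.4 and 65.7 with sgSRSF1, against 85.3, 86.6 and 87.8 with sgEGFP (limma adjusted p = 0.0181). In MM.1S cells the same IL6R exon had 85.3, 80.7 and 83 with IL-6, against 88.1, 88.9 and 86.9 without, a difference of -5.0 points. Among splicing regulators 2 of 17 fitted members were called, both higher, beside 1.18% of all events called as rises and 2.93% as falls. PNISR had a 5′ UTR exon at 95.5 ± 1.7 with sgSRSF1 and 77.3 ± 3 with sgEGFP, and TIA1, an RNA-binding splicing regulator, a coding exon of 33 bases at 56.3 ± 0.94 with sgSRSF1 and 41.9 ± 1.5 with sgEGFP (SD, n = 3; limma adjusted p = 0.0179 and 0.0342).

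In 18 genes more than 1 member was called with sgSRSF1, and 6 had 3 or more. These were looked up after the values were seen. IRF3, a transcription factor of the interferon response, had 4 called exons that fell by 19.1 to 31.4 points. ACADM, an enzyme of fatty acid oxidation, had 3 that fell by 18.6 to 36.7 points. PI4KB had 3 called events and NUP62 3, and these too were lower with sgSRSF1. ZNF195 had calls in both directions. Events of 1 gene share reads and are not independent.
Partner exons did not simply mirror each other. Of the 278 region pairs, 34 had at least 1 called exon with sgSRSF1, and in 23 of the 34 the partners moved in opposite directions. Over all 278 pairs the partners moved in opposite directions in 62.2%, so the 34 were near that background. Both exons were called in 5 pairs, in opposite directions in 4. In 22 of the 34 the summed PSI of the pair changed by 10 points or more, as in 75 of all 278 pairs (27%), and the 34 were chosen for an exon that moved by that much.

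**Figure D4:**
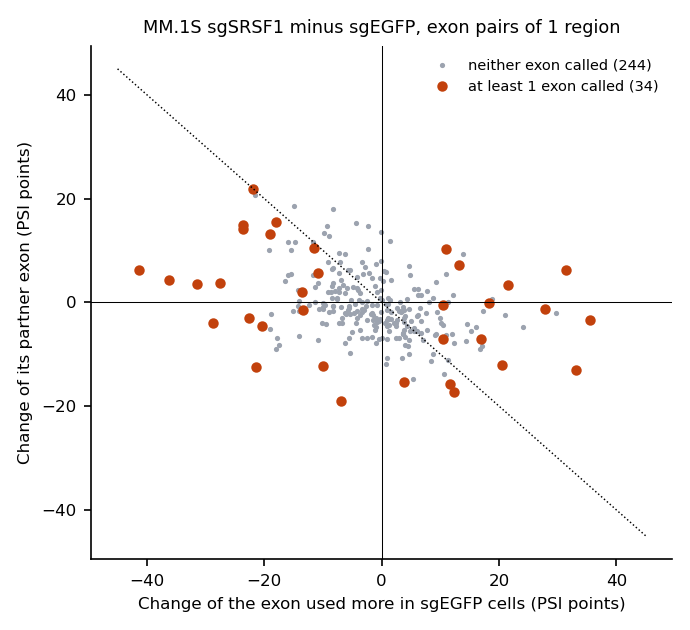
Change of the partner exon (PSI points, vertical axis) against change of the exon used more in sgEGFP cells (PSI points, horizontal axis) for 278 pairs, MM.1S sgSRSF1 minus sgEGFP; the dotted line marks an even exchange. Of the 34 pairs with a called exon, 23 have partners that moved in opposite directions, and most lie off the line.

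Sequence features of the called exons were compared as a description. Exons lower with sgSRSF1 had a median length of 133 bases, exons higher 93, and all fitted exons 112. The letters GGAGA, a purine-rich word of the kind SRSF1 is known to bind, were searched on the transcribed strand only. They were found in 34 of 102 exons with a sequence that were lower (33.3%), in 6 of 57 that were higher (10.5%), and in 564 of 2612 fitted (21.6%). Per 1000 bases, which allows for length, they occurred 2.24 times in the lower exons, 1.33 times in the higher and 1.98 times in all fitted. The longer word GAAGAA occurred 1.14 times per 1000 bases in the lower exons, 1.03 times in the higher and 0.975 times in all fitted. A match is no evidence of binding, and no test was made.

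Targeting of HNRNPL changed few members. Of 2843 fitted members 6 were called with sgHNRNPL (0.211%), beside 0.234% of all 49622 fitted events. Rises numbered 4 and falls 2, beside 0.189% of all events called as rises and 0.0443% as falls. The listed unadjusted p under 0.05 with the same size called 66 members (2.1%), beside 1.81% of all events. Without any 1 library at most 1 member was called and for some 0, so these calls rest on all 6 libraries, although the differences stayed within 30.6 to 32.8 points for CLEC7A and -43.4 to -40.0 points for UGGT2. No member was called with both sgSRSF1 and sgHNRNPL, which share their sgEGFP libraries. With 6 calls here and 5.67% of fitted members called with sgSRSF1, that says little about members. The overlap over all events was not counted. CLEC7A, the beta-glucan receptor Dectin-1, had a coding exon at 48, 48.7 and 44.3 with sgHNRNPL, against 15.3, 16.6 and 14.7 with sgEGFP, a rise of 31.5 points (limma adjusted p = 0.0157). UGGT2, a homologue of the glycoprotein folding sensor UGGT1, had a coding exon at 52.9, 46.7 and 46.2 with sgHNRNPL, against 91.8, 86.6 and 91.1 with sgEGFP, a fall of 41.2 points (limma adjusted p = 0.0219). With sgSRSF1 the CLEC7A exon averaged 14.5 and the UGGT2 exon 95.2, differences of -1.1 and 5.3 points that were not called (limma adjusted p = 0.726 and 0.0815).
ACSL1, a long-chain acyl-CoA synthetase, rose to 26.5 ± 3 with sgHNRNPL, against 8.39 ± 1.3 with sgEGFP (limma adjusted p = 0.0443). IFI16, a DNA sensor of the interferon response, rose to 31.8 ± 1.6 with sgHNRNPL, against 14.8 ± 0.25 with sgEGFP (limma adjusted p = 0.0457). SPATS2 had 12.1 ± 2.1 with sgHNRNPL and 1.68 ± 0.5 with sgEGFP, and TMEM161B-DT, a non-coding transcript, 0.868 ± 0.66 with sgHNRNPL and 11.4 ± 2.6 with sgEGFP (SD, n = 3; limma adjusted p = 0.0284 and 0.0245). The letters ACACA, searched on the transcribed strand, were in each of the 4 exons that rose, and in 12.2% of 2519 fitted exons with a sequence. The median length was 150 bases in the 4 and 108 in the 2519.

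SLAMF7 and BPTF were chosen after their values were seen. Each had an exon called with sgSRSF1 that was not called with sgHNRNPL but had groups without overlap there. That holds for 20% of fitted members and 17.8% of all fitted events with sgHNRNPL. The SLAMF7 exon of 104 bases had 43.8, 44.3 and 43.3 with sgHNRNPL, against 34.6, 32 and 33.5 with sgEGFP (limma adjusted p = 0.229), above the controls where sgSRSF1 cells lay below them. Its partner of 120 bases, also called with sgSRSF1, had 48.8, 48.4 and 49.2 with sgHNRNPL, against 49.7, 50.6 and 49 with sgEGFP. Those groups overlapped, at a difference of -1.0 points (limma adjusted p = 0.915), so the pair did not shift as a pair. The BPTF exon had 76.9, 81.2 and 67.1 with sgHNRNPL, against 44.9, 41.9 and 42.7 with sgEGFP (limma adjusted p = 0.0956). The control libraries are the same in both comparisons.

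FYN had the largest differences of the textbook list with sgHNRNPL but was not called. Its upstream exon, printed above, had PSI of 22.5, 19 and 15.3 with sgHNRNPL, against 10.2, 9.73 and 5.66 with sgEGFP, a difference of 10.4 points (limma adjusted p = 0.233). The downstream exon had 69.4, 72.1 and 79.2 with sgHNRNPL, against 85.7, 84.9 and 90.6 with sgEGFP, a difference of -13.5 points (limma adjusted p = 0.233). The groups did not overlap for either exon, as for 20% of fitted members in that table, and the sums were 92.5 ± 1.8 with sgHNRNPL and 95.6 ± 0.87 with sgEGFP (SD, n = 3). With sgSRSF1 the differences were -1.5 and 3.9 points and the groups overlapped. Of 11 fitted members of the textbook list none was called by limma with sgHNRNPL; 4 of them had a listed unadjusted p under 0.05, beside 9% of members and 7.33% of all events with a listed p, and the 2 FYN exons were also past 10 points. The other FYN members were 5′ UTR exons. The best used, of 70 bases, had 80.1 ± 3 with sgHNRNPL and 77.6 ± 7.3 with sgEGFP, and the exon of 41 bases had 11.8 ± 1.4 with sgHNRNPL and 15.8 ± 6.1 with sgEGFP (SD, n = 3; limma adjusted p = 0.879 and 0.744). No value of MEF2D with sgHNRNPL is used here.

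**Figure D5:**
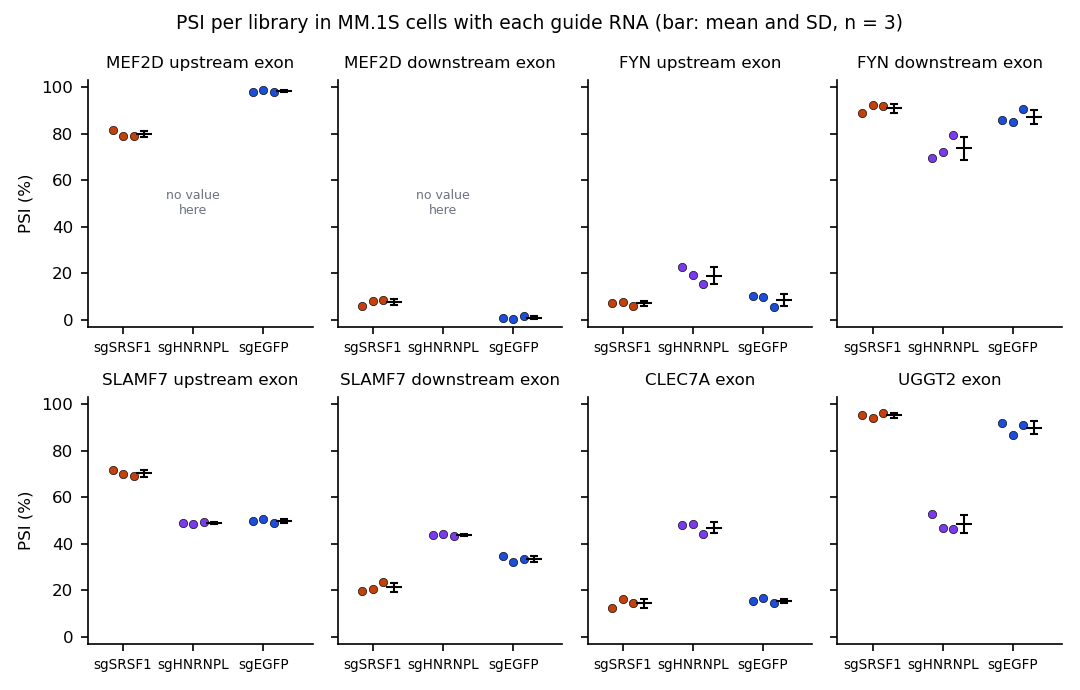
PSI of each library (percent, vertical axis; points) in MM.1S cells with sgSRSF1, sgHNRNPL and sgEGFP for 8 exons, with the mean and SD of 3 libraries beside them. Both SLAMF7 exons and the MEF2D upstream exon were called with sgSRSF1, CLEC7A and UGGT2 with sgHNRNPL. The FYN differences with sgHNRNPL were not called, nor was the rise of the SLAMF7 downstream exon by 10.4 points. No MEF2D value is shown with sgHNRNPL.

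Over the 8 comparisons 214 distinct members were called, 167 of them with sgSRSF1, and 9 of the 214, in 8 genes, in more than 1 comparison. The matching count over all events was not made, so 9 cannot be read as many or few. PPP1R12A and MTMR1 fell with IL-6 in both lines, and the IL15 pair has been given. STK25 fell with IL-6 and with sgELL2 in MM.1S cells. PXN fell with sgELL2 and with sgSRSF1, where it had 5, 8.14 and 6.49, against 28.6, 35.8 and 16.1 with sgEGFP (limma adjusted p = 0.0384). RBM41 rose with sgELL2 in INA-6 cells and with sgSRSF1 in MM.1S cells, to 81.9 ± 2.2, against 64.9 ± 3.3 with sgEGFP (SD, n = 3; limma adjusted p = 0.0238).
ODF2L and PHF8 changed direction between comparisons. ODF2L fell with IL-6 and rose with sgPOU2AF1, and with sgSRSF1 it had 6.35, 0.8 and 2.94, against 24, 16.5 and 22.5 with sgEGFP, which missed the threshold (limma adjusted p = 0.0535). PHF8 rose with IL-6 in INA-6 cells and fell with sgSRSF1 in MM.1S cells, to 52.5, 55.8 and 52.2, against 72, 77.9 and 68.9 with sgEGFP (limma adjusted p = 0.0351). The sgEGFP level of ODF2L was 15.8 ± 3.7 beside sgPOU2AF1 and 21 ± 4 beside sgSRSF1 (SD, n = 3), with overlapping libraries. PPP1R12A, in cells that all had IL-6, had its upstream exon at 73.8 with sgSRSF1, 77.3 with sgHNRNPL and 64.8 with sgEGFP, and neither difference passed (limma adjusted p = 0.0902 and 0.24).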

How the data were processed

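Strand-specific mRNA libraries (42, 3 in each of 14 groups, made at 1 of 2 providers that the labels do not tie to libraries, so no batch was tested) were aligned to GRCh38 with STAR 2.7.10b and handled with SAMtools 1.19.2, per the submitters' processing notes. No source used here gives the splicing caller. The authors' deposited workbook lists the PSI of each library in percent. Depth is unknown, and the spread between libraries measures precision. The deposited column headed as an FDR equals an unadjusted p-value of the listed PSI in 100% of events and was used as that. Headers of the INA-6 guide sheets name MM.1S. Across events their sgEGFP PSI correlated at 0.995 and 0.997 with IL-6-treated INA-6 libraries, against 0.953 and 0.961 for IL-6-treated MM.1S libraries, and they were taken as INA-6.

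Logit PSI, clipped at 1 and 99%, was fitted with limma 3.58.1 (R 4.3.3) for events that had at least 2 values in both groups and varied after clipping. No replicate term was used, and the fit was tested on simulated data. Differences between lines were interaction terms over events listed in both sheets. Exon labels and sequences came from GENCODE release 29. Python 3.11.15 with numpy 2.4.6, pandas 2.3.3, scipy 1.17.1 and matplotlib 3.10.9 did the rest. Members, gene lists and tests were chosen with earlier results of these data known. Named events were, per comparison, up to 6 of the largest rises and 6 of the largest falls among called members with all values, events called in several comparisons, called genes of 3 lists (textbook mutually exclusive exons, splicing regulators, B cell and IL-6 genes), and the 8 textbook-list events with the largest differences in the complete tables. The values of 1 gene are not reported here.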

Additional observations from a re-analysis of the deposited data

Results flagged for a closer look

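Of 13 members listed with IL-6 in both lines, 5 had different effects in INA-6 and MM.1S cells by the interaction test (limma adjusted p under 0.05), beside 304 of all 615 events listed in both (49.4%). Each value here is the INA-6 effect minus the MM.1S effect on the logit scale.

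ALDOA, the glycolytic aldolase, had opposite directions in a 5′ UTR exon of 52 bases. PSI was 21.4 ± 0.26 with IL-6 and 18.7 ± 0.93 without in INA-6 cells, and 26.7 ± 0.17 with and 32 ± 1.2 without in MM.1S cells (SD, n = 3), an interaction of 0.42 (limma adjusted p = 0.000279). RPS24, a ribosomal protein gene, had 2 overlapping versions of a small exon that were lower with IL-6 in both lines and by less in INA-6 cells. The exon of 22 bases differed by -2.92 points in INA-6 and -5.60 in MM.1S, and the exon of 25 bases by -1.38 and -2.72 points, each with an interaction of 0.24 (limma adjusted p = 0.00691 and 0.00512). DCTN2, a dynactin subunit, differed by -1.70 points in INA-6 and -0.35 in MM.1S, an interaction of -0.21 (limma adjusted p = 0.0392). NDUFAF6 had an interaction of 0.26 (limma adjusted p = 0.0036), but its exon is listed at 0 in every INA-6 library, so the value rests on the MM.1S difference of -6.22 points.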

How the results depend on the processing

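Adjusting over 58062 events, the number with a p-value in the complete sgSRSF1 table, left 3 called members for MM.1S IL-6, 2 for INA-6 IL-6, 3 for INA-6 sgPOU2AF1 and 0 for MM.1S sgPOU2AF1, MM.1S sgELL2 and INA-6 sgELL2 (limma; 53, 20 and 38 fitted members had an unadjusted p under 0.05 there). The listed p-value rule called 290 members for sgSRSF1 and 66 for sgHNRNPL. A threshold of 5 points called 49, 23, 9, 33, 36 and 14 members for MM.1S IL-6, MM.1S sgPOU2AF1, MM.1S sgELL2, INA-6 IL-6, INA-6 sgPOU2AF1 and INA-6 sgELL2. A threshold of 20 points called 68 for sgSRSF1, 2 each for sgHNRNPL and MM.1S sgPOU2AF1, 1 for INA-6 IL-6 and 0 for the other 4.

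Without 1 library at a time the counts ran from 9 to 15 for MM.1S IL-6, 5 to 9 for MM.1S sgPOU2AF1, 3 to 5 for MM.1S sgELL2, 11 to 13 for INA-6 IL-6, 4 to 7 for INA-6 sgPOU2AF1, 4 to 7 for INA-6 sgELL2, 52 to 70 for sgSRSF1 and 0 to 1 for sgHNRNPL; 5 libraries give a weaker test by construction.

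Median differences moved with 1 event per gene, the largest being kept, to -4.26 points for MM.1S IL-6, 3.24 for MM.1S sgPOU2AF1, -1.18 for INA-6 IL-6, -0.99 for INA-6 sgPOU2AF1, 0.83 for INA-6 sgELL2, where the median over all fitted members was -0.48 and the direction thus turned, -1.18 for sgSRSF1 and 0.16 for sgHNRNPL. With all 3 values required, MM.1S sgPOU2AF1 moved to 1.69, and with 1 event per exon INA-6 sgPOU2AF1 moved to -0.99. The FYN 5′ UTR exon of 70 bases ran from -1.4 to 5.8 points with sgHNRNPL when 1 value was left out, and reversed without the first sgEGFP value. No paired analysis was possible because the tables list 3 values per group without replicate numbers, and a place in the list was not taken to pair libraries across groups.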
